A study of Homo sapiens with 6 samples.

Results

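The 9 genes described here make and regulate the proteins by which a cell shows peptides to cytotoxic T cells on class I molecules of the major histocompatibility complex (MHC). They are the heavy chain genes HLA-B, HLA-C, HLA-E and HLA-F, the light chain gene B2M, the peptide transporter genes TAP1 and TAP2, the loading chaperone gene TAPBP and the transactivator gene NLRC5. The members were chosen by name, and were found by NCBI Gene ID among the 16623 genes of the expression files, where all 9 were listed. RNA came from MDA-MB-231, a human triple-negative breast cancer cell line, treated for 24 h or for 48 h with PCI-24781, an inhibitor of histone deacetylases (HDACs), at 100 nM or at 200 nM, or with its solvent DMSO alone. Each of these 6 conditions has 1 library from this single cell line. No difference between libraries therefore has a replicate check, no test was run, and no p-value or standard deviation is given.

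A class I molecule is a heavy chain held together with beta-2-microglobulin, the product of B2M, and with a short peptide. The peptides are cut by the proteasome, carried into the endoplasmic reticulum by the TAP1 and TAP2 dimer, trimmed by aminopeptidases such as ERAP1 and fitted into the groove with the help of tapasin, the product of TAPBP. NLRC5 acts at the promoters of these genes together with the RFX complex, CREB and ATF proteins and NF-Y, and interferons raise the same genes through IRF1 among others. In tumor cells, low class I expression is known as a route of escape from T cells.

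The unit of expression is FPKM, the fragments of a gene scaled by transcript length and by the fragments mapped in the library, so that levels can be compared between genes. A change is the log2 of the ratio of FPKM + 1 between both libraries, and a gene was called higher or lower at 2-fold or more when it reached 1 FPKM in either of both libraries. The pseudocount of 1 understates changes of genes with low FPKM, here HLA-F and NLRC5. The files give no read counts, and steps between low values placed the depth at about 15700000 to 18100000 fragments per library, lowest at 200 nM 48 h. Of the receptor genes that define triple-negative cells, ESR1 was at no more than 0.04 FPKM and PGR at no more than 0.03, while ERBB2 was between 13.16 and 21.36. The mesenchymal gene VIM was between 1629 and 2053.

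The promoters of the class I heavy chain genes and of B2M are shown because the members named below differ in which of the searched letters these windows hold. RefSeq promoter windows were found for 7 of the 9 members, and HLA-E and NLRC5 had none in the table used. Each sequence is the 250 bases before the start site in GRCh38.p14, written 5′ to 3′ on the strand of the gene. The letters searched on both strands were GAAA, any 2 bases and GAAA again (a core of the interferon-stimulated response element), GGGG, any 2 bases and TCCC (a form of the kappa B site), TGACGC (part of the CRE-like X2 box) and CCAAT (the box bound by NF-Y), and capitals mark the matches.
HLA-B, chr6:31357180-31357429, minus strand: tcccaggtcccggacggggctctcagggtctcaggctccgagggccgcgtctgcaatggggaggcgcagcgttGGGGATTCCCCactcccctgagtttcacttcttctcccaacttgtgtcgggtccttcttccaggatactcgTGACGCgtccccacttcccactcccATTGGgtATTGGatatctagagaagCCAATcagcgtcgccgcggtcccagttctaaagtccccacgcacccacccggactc
HLA-C, chr6:31272093-31272342, minus strand: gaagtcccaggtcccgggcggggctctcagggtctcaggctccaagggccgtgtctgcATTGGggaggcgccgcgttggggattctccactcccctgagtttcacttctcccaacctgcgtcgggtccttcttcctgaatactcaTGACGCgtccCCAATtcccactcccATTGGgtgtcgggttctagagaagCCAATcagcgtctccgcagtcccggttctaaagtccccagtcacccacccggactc
HLA-F, chr6:29723184-29723433, plus strand: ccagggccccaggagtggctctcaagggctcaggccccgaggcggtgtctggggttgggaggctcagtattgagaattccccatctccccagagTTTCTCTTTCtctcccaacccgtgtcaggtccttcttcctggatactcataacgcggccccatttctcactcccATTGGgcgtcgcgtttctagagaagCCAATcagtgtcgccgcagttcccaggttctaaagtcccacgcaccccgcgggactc
B2M, chr15:44711267-44711516, plus strand: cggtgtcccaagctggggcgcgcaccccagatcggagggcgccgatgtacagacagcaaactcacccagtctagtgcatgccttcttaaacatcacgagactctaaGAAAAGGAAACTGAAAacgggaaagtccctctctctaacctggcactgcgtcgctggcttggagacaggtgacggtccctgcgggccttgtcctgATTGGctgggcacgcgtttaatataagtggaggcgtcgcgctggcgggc

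Counting back from the start site, the HLA-B window held the kappa B letters on both strands, overlapping, with their first bases at -177 and -176, TGACGC at -106 and CCAAT in 3 places. The HLA-C window held TGACGC at -105 and CCAAT in 4 places. In the HLA-F window, the interferon-type letters lay at -156 on the other strand, beside CCAAT in 2 places. B2M had overlapping interferon-type matches at -144 and -138 and CCAAT letters at -49. Of the genes whose windows are not printed, TAP1, with 2 windows listed, had overlapping interferon-type matches at -134 and -128 in the first of them, TAP2 at -58 beside TGACGC at -35, and TAPBP, again overlapping, at -20 and -14. Among all 35116 promoter windows of this length, the interferon-type letters occurred in 3.02%, the kappa B letters in 2.46%, TGACGC in 7.67% and CCAAT in 32.01%. A match is a run of letters and not a shown site of binding. A window without a match may still hold another form of the element, since other forms were not searched.

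HLA-F, HLA-B and HLA-C were the members that differed most between libraries, and for all 4 heavy chain genes the DMSO 24 h library had the lowest value. At 24 h all 4 were higher in both PCI-24781 libraries than in DMSO. At 48 h all 4 were lower at 100 nM than in DMSO, with log2 changes between -0.69 and -0.05, and at 200 nM the changes lay between -0.18 and 0.25. DMSO itself was higher at 48 h than at 24 h for all 4.

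**Figure D1:**
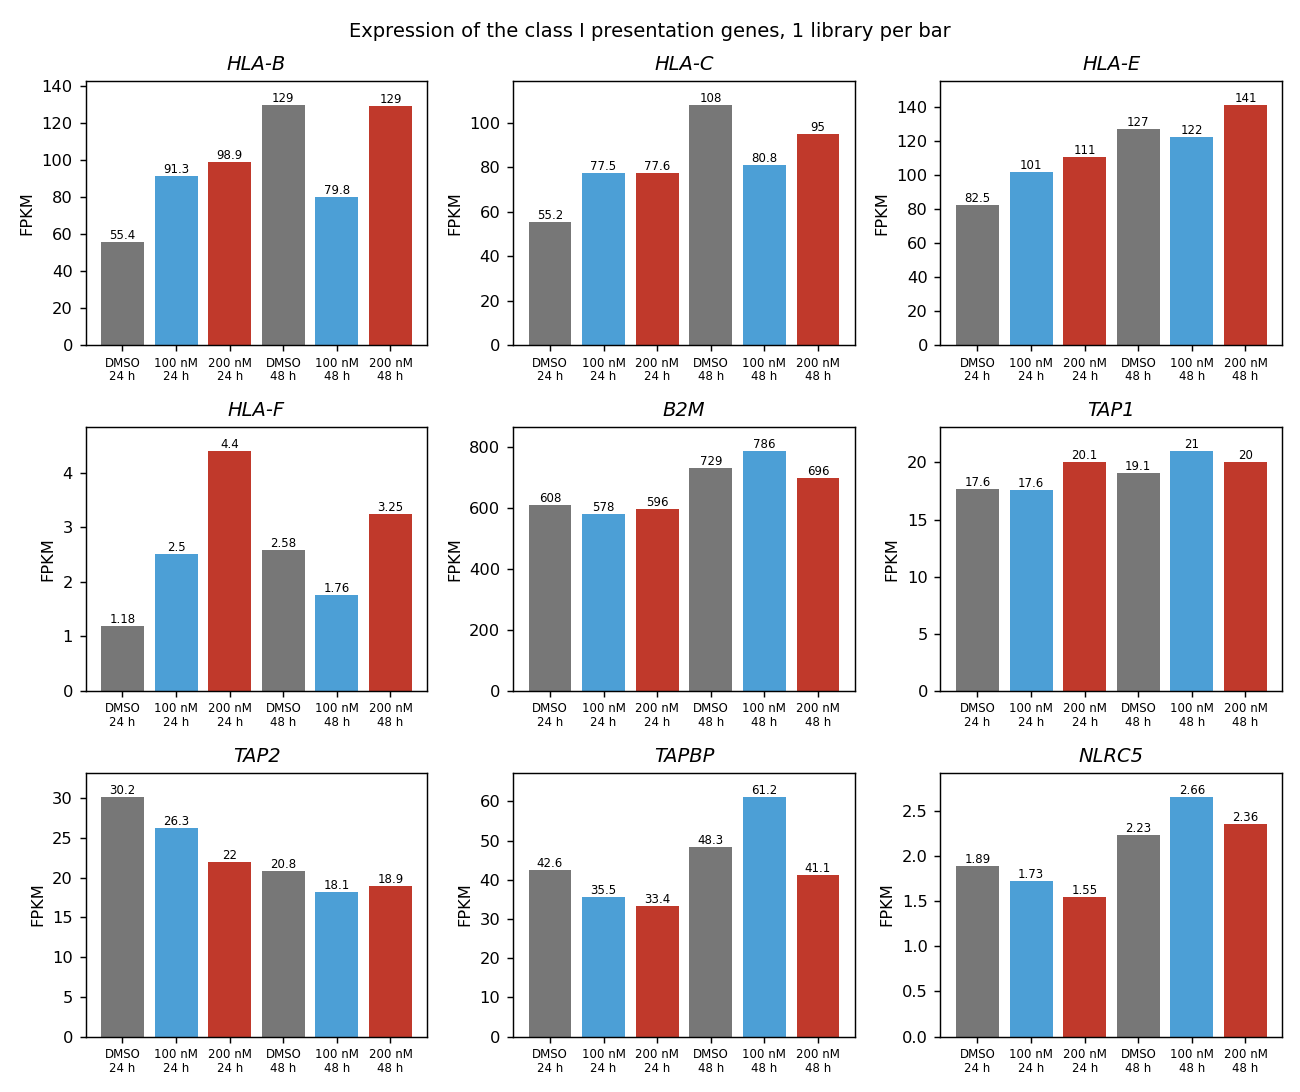
FPKM of the 9 genes in each of the 6 libraries, with 1 bar per library and a vertical axis of its own for each gene (grey DMSO, blue 100 nM, red 200 nM PCI-24781). The DMSO 24 h bar is the lowest for HLA-B, HLA-C, HLA-E and HLA-F, whereas TAP1 stays between 17.57 and 21.02 and TAP2 is highest in DMSO 24 h at 30.20.

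HLA-B (NCBI Gene ID 3106), which encodes a classical heavy chain presenting peptides to CD8 T cells, lies on chromosome 6 from 31321643 to 31325022 on the minus strand in the coordinates of the files (hg19). The DMSO, 100 nM and 200 nM libraries of 24 h had 55.37, 91.27 and 98.93 FPKM of HLA-B. Those of 48 h had 129.48, 79.85 and 129.18 FPKM in the same order of dose. The low values were those of DMSO 24 h and 100 nM 48 h, and the DMSO 48 h and 200 nM 48 h libraries were nearly equal. The log2 changes for 100 nM and 200 nM were 0.71 and 0.83 after 24 h, and -0.69 and 0.00 after 48 h. Among the genes with sufficient expression, these changes ranked at the percentiles 96.4, 93.0, 1.1 and 48.0. None of them reached 2-fold, but DMSO 48 h against DMSO 24 h did, with a log2 change of 1.21 at the percentile 98.7.

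HLA-C (3107), the other classical heavy chain gene described here, also serves as the main ligand of inhibitory receptors on natural killer cells. Its FPKM after 24 h was 55.19 with DMSO, 77.51 with 100 nM and 77.59 with 200 nM, and after 48 h it was 107.95 with DMSO, 80.84 with 100 nM and 95 with 200 nM. Both doses gave nearly the same value at 24 h, with a log2 change of 0.48 each. At 48 h both treated libraries lay below DMSO, with changes of -0.41 and -0.18. The DMSO libraries differed by 0.96 on the log2 scale, just short of 2-fold.

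HLA-E (3133) encodes a nonclassical chain that presents leader peptides of other class I chains to the receptor NKG2A. With 82.52, 101.47 and 110.80 FPKM in the DMSO, 100 nM and 200 nM libraries of 24 h, it was the most abundant of the 4 heavy chain genes. The corresponding 48 h values were 127.21, 122.44 and 141.13 FPKM. HLA-B alone exceeded it, and only in DMSO 48 h. Its log2 changes were 0.30 and 0.42 after 24 h, and -0.05 and 0.15 after 48 h.

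HLA-F (3134) encodes a nonclassical chain that can reach the surface without peptide and is bound by killer cell receptors. It was expressed far below the others, at 1.18 FPKM with DMSO, 2.50 with 100 nM and 4.40 with 200 nM after 24 h. After 48 h, the same conditions gave 2.58, 1.76 and 3.25 FPKM. In both times the 200 nM library was the highest. Its log2 change at 200 nM 24 h was 1.31, the only call of a member against DMSO of the same time, and the other changes were 0.68 for 100 nM after 24 h, and -0.38 and 0.25 for the doses after 48 h. The value at 100 nM 24 h corresponds to an FPKM ratio of 2.12, and with a pseudocount of 0.1 the change was 1.02, which passes 2-fold. These levels rest on few reads, about 19 fragments in DMSO 24 h and 67 at 200 nM 24 h on the shortest transcript listed.

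Heavy chain genes resemble each other in sequence, so the share of each listed transcript (GENCODE release 29) that also occurs in transcripts of another gene was counted. Of all stretches of 100 bases, 12.2% were shared in HLA-B, 0.3% in HLA-C, 0.6% in HLA-E and 31.8% in HLA-F. No stretch of this length was shared between members, and at 50 bases the largest share between any pair was 2%. TAPBP had no matched transcript, so its own stretches were not searched. Matches on either strand were counted, so a gene that overlaps on the other strand can add to a share. How the counting divided reads of such stretches was not tested, so the value of HLA-F in particular is uncertain.

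Of the 9 members, 1 was called higher at 200 nM 24 h, where 4.49% of 11660 genes were called higher and 1.48% lower. At 100 nM 24 h none was called, against 1.35% of genes called higher and 0.131% lower. None was called at 48 h either, where 0.0608% of genes were higher and 0.408% lower at 100 nM, and 0.206% were higher and 0.06% lower at 200 nM. Between the DMSO libraries 1 of 9 was called higher (HLA-B), against 2.49% of 11490 genes called higher and 0.131% lower. The median change of the 9 members was -0.01 and 0.18 after 24 h and -0.05 and 0.00 after 48 h, for 100 nM and 200 nM, where the median of all genes was between -0.01 and 0.01. Over the DMSO libraries the median of the members was 0.26, with 8 members above 0 and TAP2 below.

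At a 1.5-fold threshold the calls were all heavy chains. HLA-B and HLA-F were called higher by each dose after 24 h, where 5.58% of genes were called higher and 1.25% lower for 100 nM, and 12.5% higher and 7.62% lower for 200 nM. HLA-B was called lower by 100 nM after 48 h, where 0.504% of genes were higher and 1.76% lower. No member was called by 200 nM after 48 h, against 1.53% of genes higher and 0.463% lower. HLA-B, HLA-C, HLA-E and HLA-F were all called higher when DMSO 48 h was set against DMSO 24 h, with 8.51% of genes higher and 1.95% lower.

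**Figure D2:**
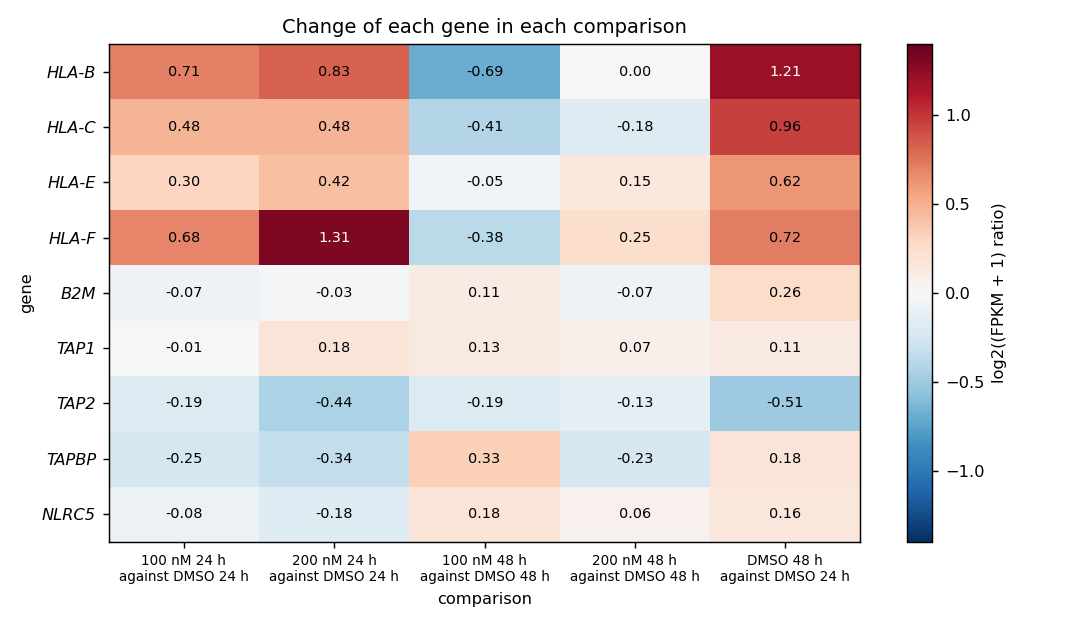
Log2 of the ratio of FPKM + 1 for each of the 9 genes (rows) in each of the 5 comparisons (columns), with red for higher and blue for lower in the first-named library. The 4 heavy chain rows are red at 24 h and between the DMSO libraries and blue at 100 nM 48 h, with the strongest value of 1.31 in HLA-F at 200 nM 24 h.

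The direction of the HLA-B and HLA-C changes depended on which DMSO library was the reference. Both doses of a time share their DMSO library, and the DMSO comparison uses both of them, so these changes are not independent of each other. Against DMSO 48 h, HLA-B had a log2 change of -0.50 at 100 nM 24 h and -0.38 at 200 nM 24 h. Against DMSO 24 h, it had 0.52 at 100 nM 48 h and 1.21 at 200 nM 48 h. HLA-C turned the same way, with -0.47 for both 24 h libraries against DMSO 48 h and with 0.54 and 0.77 for the 48 h libraries against DMSO 24 h. HLA-E had -0.32 and -0.20 for the 24 h libraries and 0.56 and 0.77 for those of 48 h. For HLA-F, the call at 200 nM 24 h was lost, with a change of 0.59. Time in culture and a property of a single library cannot be told apart with 1 library each. That library could be DMSO 24 h, DMSO 48 h or 100 nM 48 h. At 48 h, 0.206% of genes were higher and 0.06% lower at 200 nM than in DMSO. Against 100 nM of that time, 1.71% were higher and 0.291% lower at 200 nM.

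Between the doses, HLA-F had log2 changes of 0.63 at 24 h and 0.62 at 48 h for 200 nM against 100 nM, a comparison that uses no DMSO library. HLA-B had 0.12 and 0.69, and HLA-C 0.00 and 0.23. HLA-B, HLA-E and HLA-F were higher at 200 nM than at 100 nM in both times, and no member was called in either comparison of doses, where 0.343% of genes were higher and 0.18% lower at 24 h, and 1.71% were higher and 0.291% lower at 48 h.

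In bulk RNA, fewer cells of a type and less RNA per cell cannot be told apart. The marker list of immune cells, which express class I genes strongly, held 8 genes, of which 5 were read here. Their summed FPKM for DMSO, 100 nM and 200 nM was 1.09, 1.45 and 2.17 after 24 h, and 1.86, 2.19 and 2.56 after 48 h. The sum was lowest in DMSO 24 h and highest at 200 nM 48 h. CD14, a receptor gene of monocytes, ranged from 0.28 in DMSO 24 h to 1.47 at 200 nM 48 h, while PTPRC stayed between 0.76 and 1.01. The defining genes CD3E of T cells, NKG7 of cytotoxic cells and ITGAM of myeloid cells were at no more than 0.08 in any library, and ITGAM was at 0 in all but 200 nM 48 h. RNA came from cultures of a single breast cancer cell line, so immune cells were not part of the design. The marker sums came mainly from PTPRC and CD14 at low levels. The summed heavy chains had 194.26 FPKM in DMSO 24 h and 368.56 at 200 nM 48 h. What the marker values stem from was not tested.

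B2M (567), on chromosome 15 from 45003685 to 45010357 on the plus strand (hg19), encodes the light chain that every class I heavy chain needs to fold. It was the most abundant of the 9 genes, with 608.18, 578.34 and 596.37 FPKM in the DMSO, 100 nM and 200 nM libraries of 24 h. The 48 h libraries had 728.74, 786.26 and 695.84 FPKM. The 3 libraries of 48 h all lay above the 3 of 24 h. Against DMSO of the same time, the log2 changes were between -0.07 and 0.11. Its transcript shared no stretch of 50 bases with another gene.

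The balance of these 4 heavy chain genes to the light chain within a library does not depend on the scaling of that library. The summed FPKM of HLA-B, HLA-C, HLA-E and HLA-F was 31.9% of B2M with DMSO, 47.2% with 100 nM and 48.9% with 200 nM after 24 h. After 48 h it came to 50.4% with DMSO, 36.2% with 100 nM and 53.0% with 200 nM. The DMSO 24 h and 100 nM 48 h libraries thus had the lowest shares, and the other 4 lay close together. B2M was in excess of the summed heavy chains described here in every library.

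**Figure D3:**
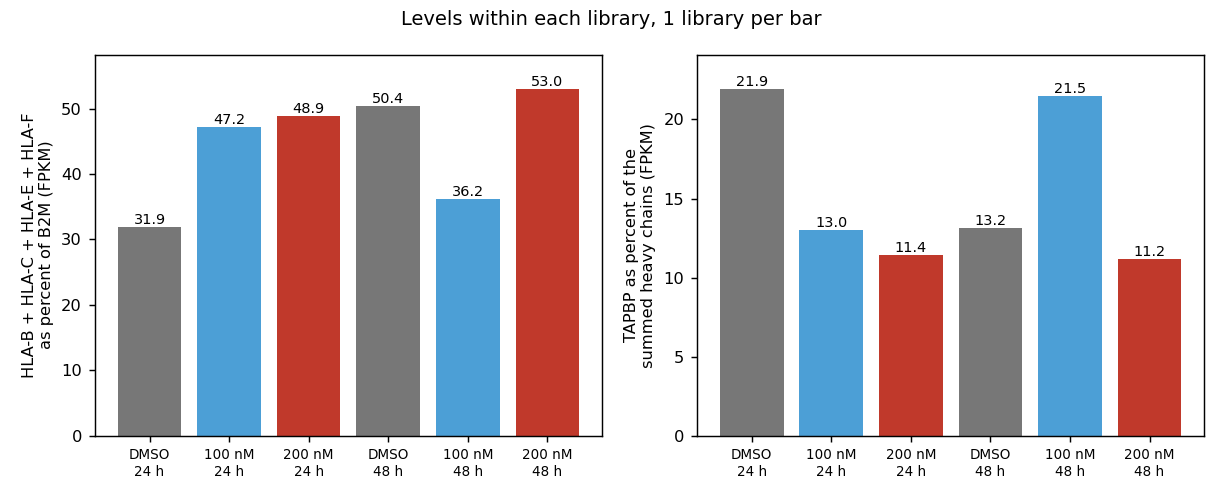
Left, the summed FPKM of HLA-B, HLA-C, HLA-E and HLA-F as a percentage of the FPKM of B2M, and right, TAPBP as a percentage of the summed heavy chains, with 1 bar per library. DMSO 24 h and 100 nM 48 h are lowest on the left (31.9% and 36.2%) and highest on the right (21.9% and 21.5%).

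The ratio of HLA-B to HLA-C in FPKM was lowest in the same libraries. DMSO 24 h had a ratio of 1.0 and 100 nM 48 h a ratio of 0.988, and it lay between 1.18 and 1.36 in the other libraries. HLA-E alone amounted to between 13.6% and 20.3% of B2M.

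TAP1 (6890) encodes a subunit of the transporter that pumps peptides into the endoplasmic reticulum, and it was the steadiest of the 9 genes. For DMSO, 100 nM and 200 nM, its FPKM was 17.64, 17.57 and 20.08 after 24 h and 19.09, 21.02 and 20.03 after 48 h. The highest library had 1.20 times the lowest, and the log2 changes against DMSO were between -0.01 and 0.18.

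TAP2 (6891), the partner subunit, lies on chromosome 6 from 32789610 to 32806600 on the minus strand (hg19). In contrast to TAP1 it was highest in DMSO 24 h, with 30.20 FPKM, against 26.29 for 100 nM and 21.98 for 200 nM at that time. The DMSO, 100 nM and 200 nM libraries of 48 h had 20.84, 18.15 and 18.91 FPKM. Every 48 h library lay below every 24 h library. The log2 changes against DMSO were negative in all 4 comparisons, with -0.19 and -0.44 after 24 h and -0.19 and -0.13 after 48 h, and none reached 1.5-fold. Against the DMSO of the other time they were not all negative, with 0.32 at 100 nM 24 h and 0.07 at 200 nM 24 h. The ratio of TAP2 to TAP1 in FPKM was 1.71, 1.5 and 1.09 at 24 h in the order DMSO, 100 nM and 200 nM, and for these conditions of 48 h it was 1.09, 0.863 and 0.944. Of stretches of 100 bases, 35.2% of the TAP2 transcript and 12.7% of the TAP1 transcript also occurred in transcripts of other genes, so the TAP2 values and ratios carry the same doubt as those of HLA-F.

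TAPBP (6892) encodes tapasin, which bridges the transporter and the empty heavy chain. After 24 h it had 42.56 FPKM with DMSO, 35.51 with 100 nM and 33.39 with 200 nM, and after 48 h it had 48.33, 61.20 and 41.15 FPKM in the same order. The 100 nM 48 h library, low for HLA-B, was the highest for TAPBP. The log2 changes were -0.25 and -0.34 after 24 h, and 0.33 and -0.23 after 48 h, and the change at 100 nM 48 h was at the percentile 96.5 of genes. As a share of the summed heavy chains, TAPBP was 21.9% for DMSO 24 h, 21.5% for 100 nM 48 h and between 11.2% and 13.2% in the other 4 libraries.

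NLRC5 (84166), on chromosome 16 from 57050986 to 57117436 on the plus strand (hg19), encodes the class I transactivator. Its values were low in all libraries, at 1.89, 1.73 and 1.55 FPKM for DMSO, 100 nM and 200 nM after 24 h, and at 2.23, 2.66 and 2.36 FPKM after 48 h. At 24 h both treated libraries lay slightly below DMSO, at the percentiles 34.4 for 100 nM and 31.4 for 200 nM among genes with sufficient expression. The log2 changes for 100 nM and 200 nM were -0.08 and -0.18 after 24 h, and 0.18 and 0.06 after 48 h. About 180 to 320 fragments per library stand behind these values, and the transcript shared no stretch of 50 bases with another gene.

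**Figure D4:**
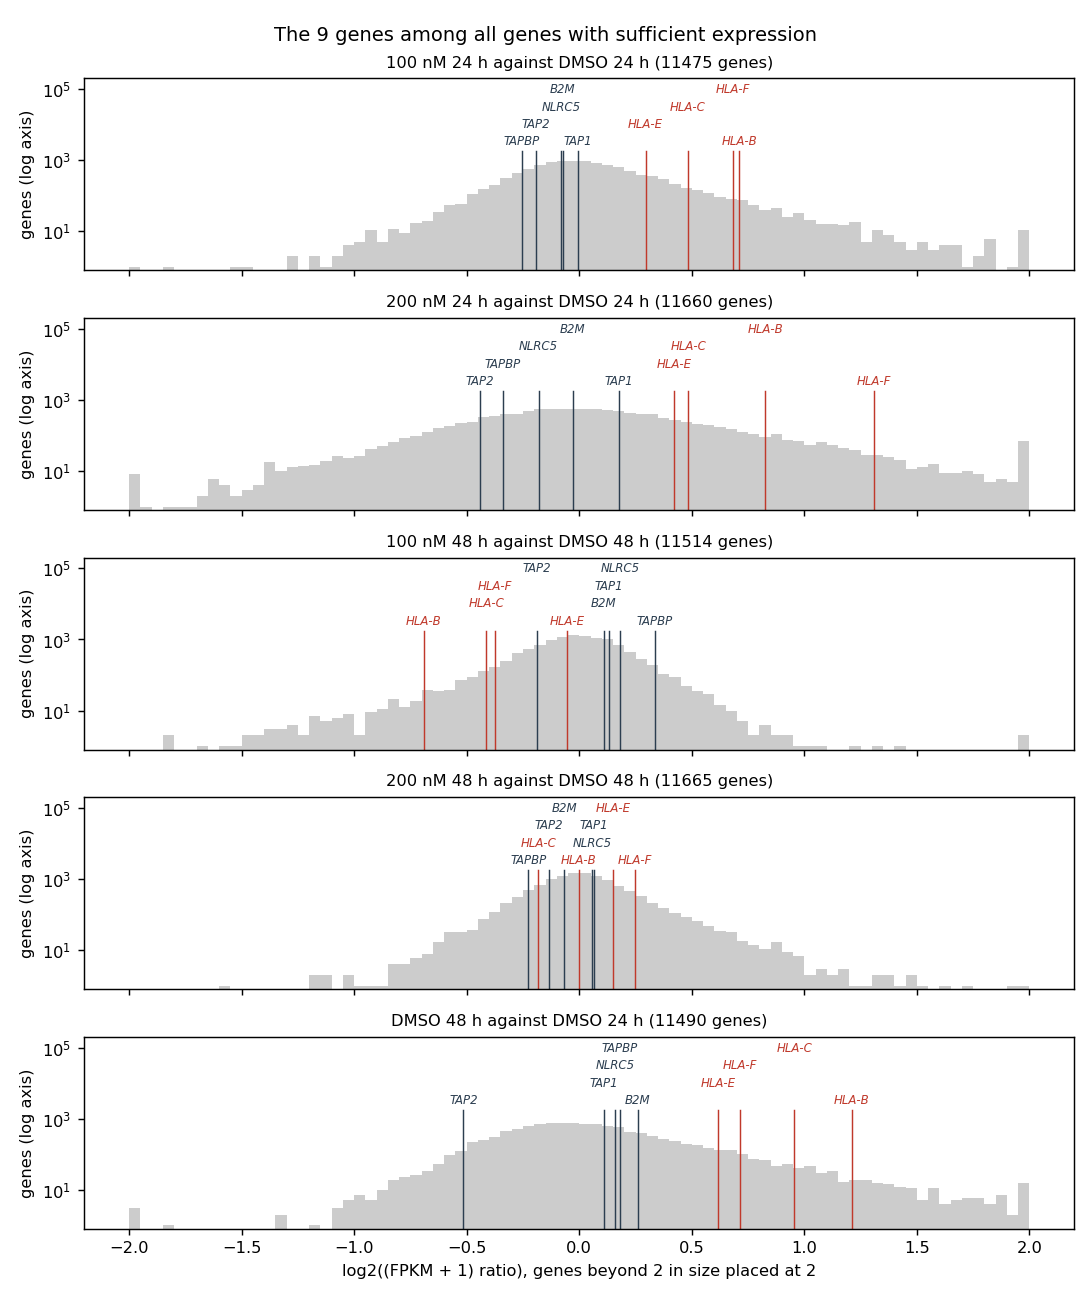
Number of genes (log axis) by log2 of the ratio of FPKM + 1 in each of the 5 comparisons, for all genes that reached 1 FPKM in either of both libraries, with lines at the 9 members (red heavy chain genes, dark blue the others). The heavy chain lines lie right of 0 at 24 h and between the DMSO libraries, and HLA-B lies at the percentile 1.1 at 100 nM 48 h.

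In the order of their levels, the median FPKM over the 6 libraries was 652.01 for B2M, 116.62 for HLA-E, 95.1 for HLA-B, 79.2 for HLA-C, 41.9 for TAPBP, 21.4 for TAP2, 19.6 for TAP1, 2.54 for HLA-F and 2.06 for NLRC5. The ranges over libraries overlapped for the neighbours HLA-E and HLA-B, HLA-B and HLA-C, HLA-C and TAPBP, TAP2 and TAP1, and HLA-F and NLRC5. B2M lay above all others in every library. The ratio of the highest to the lowest library was 3.73 for HLA-F, 2.34 for HLA-B, 1.96 for HLA-C, 1.83 for TAPBP, 1.72 for NLRC5, 1.71 for HLA-E, 1.66 for TAP2, 1.36 for B2M and 1.20 for TAP1.

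Likeness of pattern was measured as the root mean square difference of log2(FPKM + 1) over the 6 libraries after centring each gene. Among the members, B2M and NLRC5 were the closest pair at 0.062, and HLA-F and TAPBP the farthest at 0.623. The pseudocount narrows the profile of NLRC5, which has low FPKM, so its closeness to B2M is uncertain. In FPKM the highest library had 1.72 times the lowest for NLRC5 and 1.36 times for B2M. HLA-C was 0.128 from HLA-E and 0.167 from HLA-B. Of 10810 genes that reached 1 FPKM in every library, the 5 outside the members most like HLA-B were SERINC2 (0.077), NPC2 (0.083), HLA-DMA (0.098), NMRK1 (0.098) and MYLK (0.113). NPC2, a carrier of cholesterol out of lysosomes, had 183.01, 288.62 and 326.07 FPKM for DMSO, 100 nM and 200 nM after 24 h, and 362.92, 266.59 and 410.91 FPKM after 48 h. NPC2 was chosen for its likeness to HLA-B over these same libraries, so a shared order of libraries follows from that choice. The 5 most like TAP1 were PACS2 (0.025), TTC8 (0.027), NDRG3 (0.029), JAK1 (0.029) and DHRS13 (0.029). TAP1 varied little, so this choice picks genes that also varied little over these same libraries, and shared control was not tested.

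Upstream of the transporter, the proteasome subunit gene PSMB10 was called lower in 3 of the 4 treated libraries. PSMB8, PSMB9 and PSMB10 encode the catalytic subunits of the immunoproteasome, a form of the proteasome that cuts peptides for class I but is not the only one. For DMSO, 100 nM and 200 nM, PSMB10 had 8.72, 3.24 and 0.98 FPKM after 24 h and 7.18, 8.35 and 2.59 FPKM after 48 h. Its log2 changes were -1.20 and -2.30 after 24 h and 0.19 and -1.19 after 48 h, so that 100 nM 48 h was the exception. The 3 low libraries lay below both DMSO libraries. PSMB8 had 26.83, 26.86 and 15.83 FPKM for DMSO, 100 nM and 200 nM after 24 h, a change of -0.73 for the last, and was between 26.09 and 30.50 at 48 h. PSMB9 stayed between 9.30 and 13.57 with changes against DMSO between -0.24 and 0.03.

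Of the 5 immunoproteasome and PA28 activator genes, only PSMB10 was called lower, by both doses after 24 h and by 200 nM after 48 h, and no gene of the list was called higher in the 4 comparisons. Of all genes, 0.131% and 1.48% were called lower by 100 nM and 200 nM after 24 h, and 0.06% by 200 nM after 48 h. The list medians for 100 nM and 200 nM were -0.05 and -0.23 after 24 h, and 0.19 and -0.24 after 48 h. For the 3 constitutive catalytic subunits, PSMB5, PSMB6 and PSMB7, no gene was called, and the medians were -0.24 and -0.45 after 24 h, and -0.04 and -0.12 after 48 h.

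Among 9 partners of loading and trimming, of which 8 or 9 had sufficient expression, none was called in any comparison. For 100 nM and 200 nM, the median was -0.06 and -0.22 after 24 h and -0.05 and 0.00 after 48 h. ERAP1, the aminopeptidase that trims peptides to class I length, had 12.60, 9.49 and 6.23 FPKM for DMSO, 100 nM and 200 nM after 24 h, and 10.98, 11.20 and 9.25 FPKM after 48 h. Its change of -0.91 at 200 nM 24 h was the lowest of the list. CALR, which encodes the chaperone calreticulin of the loading complex, was between 673.33 and 840.45 FPKM, with changes between -0.06 and 0.24.

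The 13 transcription factors of class I promoters were all expressed and none was called. Their median changes were -0.11 and -0.24 at 24 h, with 11 and 10 of 13 below 0, and -0.01 and -0.07 at 48 h. IRF1, the interferon-induced activator of class I genes, had between 6.17 and 8.19 FPKM and changes between -0.24 and 0.01. RFX5, the DNA-binding subunit of the RFX complex, was between 25.25 and 29.61.

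RFXANK, NFKB1 and IRF9 were picked out after their values were seen. RFXANK, another subunit of the RFX complex, had 32.11, 20.96 and 18.41 FPKM for DMSO, 100 nM and 200 nM after 24 h, changes of -0.59 and -0.77. NFKB1, which encodes the p50 subunit that binds kappa B sites, had 13.44, 12.23 and 6.57 FPKM in the same libraries, with a change of -0.93 at 200 nM. IRF9, a DNA-binding factor of interferon-stimulated response elements, had 9.49, 6.63 and 4.37 FPKM there, with changes of -0.46 and -0.97. All 3 were thus below DMSO at 24 h, when the heavy chain genes were above it. After 48 h, IRF9 had 10.28 FPKM with DMSO, 12.62 with 100 nM and 8.22 with 200 nM.

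Of the 11 interferon receptor and signalling genes, none was called, and the medians were -0.07 and 0.06 after 24 h and 0.04 and 0.01 after 48 h, for 100 nM and 200 nM.

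**Figure D5:**
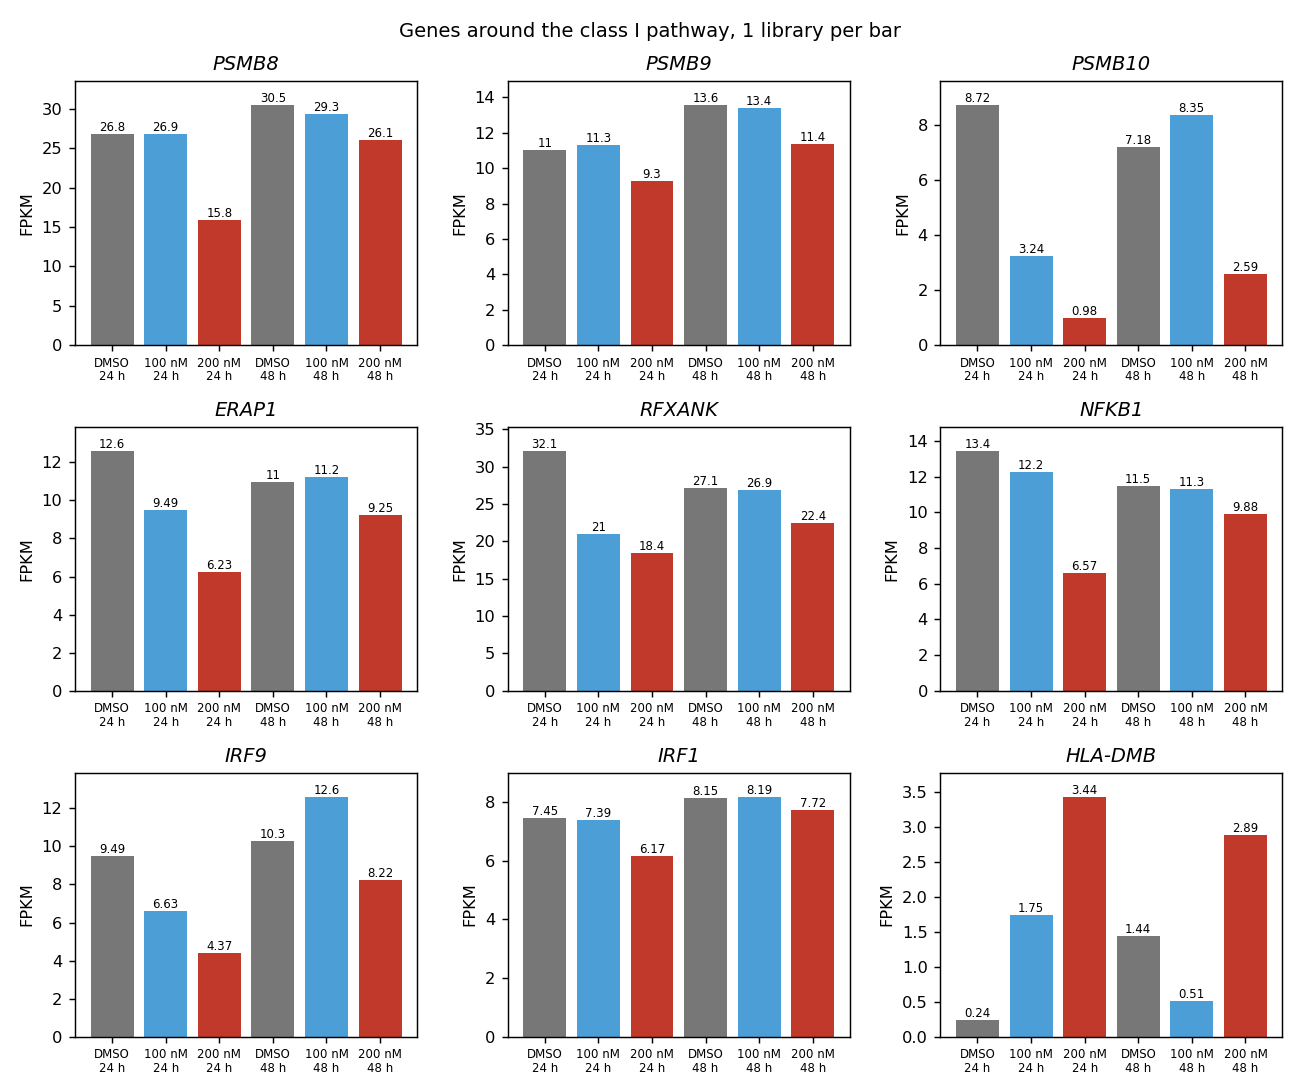
FPKM of 9 genes around the class I pathway in each of the 6 libraries, with 1 bar per library and a vertical axis of its own for each gene. PSMB10 lies at 0.98 at 200 nM 24 h and 2.59 at 200 nM 48 h, while HLA-DMB is lowest in DMSO 24 h at 0.24 and highest at 200 nM 24 h at 3.44.

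MHC class II genes, which present peptides from the endosomes of antigen-presenting cells, were for the most part at low levels. Of the 12 listed genes 11 were found, and 4 had sufficient expression in each comparison. HLA-DRA, HLA-DRB1, HLA-DPA1, HLA-DPB1, HLA-DQB1, HLA-DOA and HLA-DOB were at or below 0.5 FPKM in every library, and CIITA, the class II transactivator and a relative of NLRC5, was between 1.01 and 1.66. CD74, the invariant chain gene, was between 1.84 and 3.64. The genes called in any comparison were HLA-DMA and HLA-DMB, whose products together edit the peptides of class II molecules.

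For DMSO, 100 nM and 200 nM, HLA-DMB had 0.24, 1.75 and 3.44 FPKM after 24 h and 1.44, 0.51 and 2.89 FPKM after 48 h. It was called higher at both doses at 24 h, with log2 changes of 1.15 and 1.84, and had -0.69 and 0.67 at 48 h. Of all genes, 1.35% and 4.49% were called higher by these doses at 24 h. HLA-DMB entered the 24 h comparisons through its treated libraries alone, and when both libraries had to reach 1 FPKM it was not compared and the class II median for 200 nM went from 0.39 to 0.02. HLA-DMA had 1.60, 3.09 and 3.37 FPKM after 24 h and 5.59, 2.55 and 5.73 FPKM after 48 h in the same order. Its changes were 0.65 and 0.75 after 24 h and -0.89 and 0.03 after 48 h, and it was called higher in DMSO 48 h against DMSO 24 h, at 1.34. HLA-DMA was lowest in DMSO 24 h and, among the 48 h libraries, in 100 nM. It was among the genes picked for likeness to HLA-B, so sharing this with HLA-B follows from that choice.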

How the data were processed

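RNA-seq expression was read for 6 libraries of MDA-MB-231 cells, 1 per condition, grouped by the labels. The authors deposited expression per gene as FPKM, rounded to 2 decimals. A company enriched mRNA or depleted rRNA, built the libraries and sequenced them. The submitters' processing notes name Bowtie2, RSEM and hg19, with no versions. How reads that match several genes were divided, and any filter, are not given in the sources used here.

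NCBI Gene IDs were matched to symbols through the RefSeq gene table of GRCh38.p14 (16585 of 16623 genes). Coordinates are those of the files. For HLA-C, HLA-E, HLA-F, TAP1 and TAPBP they lie on alternative chromosome 6 haplotypes, in part mixed with chromosome 6, and are not given. Promoters are from RefSeq GRCh38.p14, and motifs were searched as exact letters on both strands.

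Log2((FPKM + 1) ratio) was computed for each PCI-24781 library against DMSO of the same time, for DMSO 48 h against DMSO 24 h and between doses. Calls needed 2-fold and 1 FPKM in either of both libraries. With 1 library per condition and no counts, no test was run. Depth is approximate and comes from the step size of low values in single-transcript genes between 500 and 1500 bases long.

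The members, the gene lists and the naming rule were chosen with earlier results of these data known. Named genes are the 9 members, the genes of each list that were called, IRF1, RFX5, PSMB8, PSMB9, PSMB10, CALR and ERAP1, and the 5 genes most like HLA-B and TAP1. Not every gene that the rule covers is reported. Others are said to be picked after their values were seen. Alternatives were pseudocounts of 0.1 and 0.01, TPM, median-of-ratios factors, other filters and a 1.5-fold threshold. The DMSO of the other time as reference, and the MHC region with haplotypes, were added after seeing the data. Scripts ran in Python 3.11.15 with numpy 2.4.6, with pandas 2.3.3 and with matplotlib 3.10.9.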

Additional observations from a re-analysis of the deposited data

Results flagged for a closer look

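The changes of several members had opposite directions at 24 h and 48 h at the same dose, with at least 1.5-fold between them. Change at 24 h minus change at 48 h, each against DMSO of its own time, was 1.4 on the log2 scale for HLA-B at 100 nM (0.71 and -0.69), 0.90 for HLA-C at 100 nM (0.48 and -0.41) and 1.06 for HLA-F at 100 nM (0.68 and -0.38). TAPBP at 100 nM went the other way, with -0.59 (-0.25 and 0.33). At 200 nM the difference was 0.67 for HLA-C (0.48 and -0.18). For HLA-B at 200 nM it was 0.83, with 0.83 at 24 h and nearly equal libraries at 48 h (0.00), so that case shows no opposite direction. None of these differences was tested, since each condition has 1 library, and each rests on both DMSO libraries, which for HLA-B differed by 1.21 and for HLA-C by 0.96.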

How the results depend on the processing

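No paired analysis was possible because only 1 library exists per condition, and for the same reason no replicate could be left out. With median-of-ratios factors, all 45 member changes moved by no more than 0.1, and all counts stayed within 1.5 times. The depth limits HLA-F and NLRC5 most. The cause of the shifts was not tested, except that a smaller pseudocount, and TPM, by construction widen changes of low genes. The counts are given as higher and lower over all genes, first for 100 nM and 200 nM at 24 h, next for these doses at 48 h, and last for DMSO 48 h against DMSO 24 h. The reported counts are 155 and 15, 523 and 172, 7 and 47, 24 and 7, and 286 and 15.

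The pseudocount of 0.1 gave 384 and 42, 880 and 283, 32 and 121, 103 and 25, and 565 and 42. Members called higher were then 1 at 100 nM 24 h (HLA-F) and 2 between the DMSO libraries (HLA-B and HLA-F). The class II medians were 0.71, 0.53 and -0.56 in the first 3 comparisons and 1.20 in DMSO, and the median of other B2M partners in DMSO was 0.37. With 0.01 the counts were 422 and 50, 938 and 298, 33 and 141, 126 and 27, and 589 and 48, the members called again 1 and 2, the class II medians 0.75, 0.56, -0.58 and 1.25, and that of other B2M partners 0.40. HLA-F at 200 nM 24 h was 1.81 and 1.89 with these pseudocounts.

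TPM gave 282 and 27 calls for 100 nM after 24 h, 13 and 75 for 100 nM and 59 and 12 for 200 nM after 48 h, and 435 and 33 in DMSO, with class II medians for 100 nM of 0.61 after 24 h and -0.50 after 48 h, and of 1.0 in DMSO. When both libraries had to reach 1 FPKM, 99 genes were higher for 100 nM and 323 for 200 nM after 24 h, and after 48 h 2 were higher and 29 lower for 100 nM and 4 lower for 200 nM. The class II medians were then 0.31 and 0.02 after 24 h, -0.02 for 100 nM after 48 h and 0.40 in DMSO, and that of loading partners at 200 nM 24 h was -0.05. Without a filter, the class II medians were 0.10, 0.10, -0.12, 0.01 and 0.07, that of loading partners at 200 nM 24 h was -0.33, and that of other B2M partners in DMSO was 0.06.

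With a 1.5-fold threshold the counts were 640 and 144, 1463 and 888, 58 and 203, 178 and 54, and 978 and 224. Members called higher were 2 at each dose at 24 h and 4 in DMSO, and 1 was lower at 100 nM 48 h. Against the DMSO of the other time, 7 genes were higher and 59 lower for 100 nM and 101 higher for 200 nM after 24 h, while after 48 h 184 were higher and 29 lower for 100 nM, and 549 higher and 53 lower for 200 nM. The median of the members was then -0.32, -0.29, 0.37 and 0.22, with 0 members called higher at 200 nM 24 h and 1 at 200 nM 48 h (HLA-B).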

Other observations

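Other proteins also pair with beta-2-microglobulin, and of 4 such genes HFE and MR1 had sufficient expression. MR1, which presents vitamin metabolites to MAIT cells, had 1.17, 1.68 and 1.87 FPKM for DMSO, 100 nM and 200 nM after 24 h, and 2.54, 2.15 and 3.04 FPKM after 48 h. HFE, a regulator of iron uptake, had 6.18, 4.75 and 3.68 FPKM after 24 h and 4.96, 6.11 and 5.49 FPKM after 48 h in the same order. Neither was called in any comparison. Both were picked out after their values were seen. MR1, like the heavy chains, was lowest in DMSO 24 h, while HFE was lowest at 200 nM 24 h. CD1D and FCGRT were below 1 FPKM in all libraries.

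The neighbours of the heavy chain genes in the extended MHC had medians near 0 at 24 h. Of 135 other genes placed there or on the chromosome 6 haplotypes, 89 had sufficient expression at each dose of 24 h, and their medians were -0.01 and 0.03. At 200 nM 24 h, 4 of these 89 genes were called higher (MICA, HLA-DMB, MSH5 and SAPCD1) and 1 lower (DXO). This was near the shares of all genes, 4.49% higher and 1.48% lower. MSH5 had a log2 change of 1.09, SAPCD1 of 1.03 and DXO of -1.02. MICA encodes a stress-induced ligand of the natural killer receptor NKG2D and had 21.55 FPKM in DMSO 24 h and 59.18 at 200 nM 24 h, a log2 change of 1.42. HLA-DMB was the only 1 of the 89 called at 100 nM 24 h, where 1.35% of all genes were higher and 0.131% lower. With 0.24 FPKM in DMSO 24 h, it entered the 24 h comparisons through its treated libraries alone. Between the DMSO libraries, CFB (1.37), HLA-DMA (1.34) and DDR1 (1.04) were called higher, as were 2.49% of all genes. How reads were divided between haplotypes was not tested.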
